A study of Mus musculus with 15 samples.

Results

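The 29 genes described here encode enzymes of cholesterol and fatty acid synthesis, a sterol transfer protein and the regulators that set the activity of both branches. They were listed by symbol, and all 29 had a row in both deposited tables, 1 of estimated counts for 32544 genes and 1 of log2-scaled counts for 17531 genes. The sterol branch has 18 members, the fatty acid branch has 7, and 4 members are regulators. All 29 passed the expression filter that left 17477 genes for testing.

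The libraries are total RNA from mouse colon tissue, read as 76-base paired ends, in 6 groups. The mice were 8 to 12 weeks old and carried wild-type Tert (WT, TERT+/+), an enzymatically inactive Tert allele (VAA) or a Tert knockout (KO, TERT-/-). Tert encodes the catalytic subunit of telomerase. Each genotype had 2 untreated libraries and 3 from mice given dextran sulfate sodium (DSS). DSS damages the epithelium of the colon when drunk, and it was given at 3% over 4 days before a return to plain water for 4 more, with colon taken on day 8. The labels give no strain, sex, litter, zygosity of the VAA allele or deleted exon. They also do not say that the libraries of a group came from separate animals, so P values measure the spread between these libraries.

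Cholesterol is built from acetyl-CoA through mevalonate, isoprenoid units and squalene, which is closed to lanosterol and trimmed to cholesterol. Fatty acids are built from the same acetyl-CoA by acetyl-CoA carboxylase and fatty acid synthase, then elongated and desaturated. Both branches are driven by the SREBP transcription factors, which Scap and the Insig proteins hold in the endoplasmic reticulum while sterols are plentiful: the Srebf2 product acts mainly on sterol genes and the Srebf1 product mainly on fatty acid genes. In the colon, dividing epithelial cells use both products for new membrane.

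Promoter sequence was available for 23 of the 29 members in RefSeq on GRCm38.p6, and Fdps, Fdft1, Sqle, Stard4, Scd1 and Scd2 had no entry. The 250 bases before each listed start were searched on both strands, and a gene with several starts was counted if any window held the motif. The NF-Y box CCAAT was found in 13 of 14 sterol genes, in 3 of 4 regulators and in 2 of 5 fatty acid genes (Fasn and Me1), against 37.5% of 27025 genes in the table. The Sp1 box GGGCGG was found in 13 of 14 sterol genes, 4 of 4 regulators and 2 of 5 fatty acid genes (Acly and Me1), against 35.4% of genes. The E-box CACGTG was found in 3 sterol genes, 2 regulators and no fatty acid gene, against 6.86% of genes. The sterol regulatory element core TCACCCCAC was found in Hmgcs1 alone among the 23, against 0.555% of genes, and the looser form TCACNCCAC added no other member, against 1.22%. For 20 of the 23 members the bases after a listed start were found in a GENCODE transcript of the gene. The 1 Acaca window, chr11:84195188-84195437, lies inside the gene (chr11:84129672-84401651). The Me1 NF-Y box was in a window inside the gene, chr9:86687278-86687527. The Me1 window at the gene start, chr9:86695915-86696164, held 0. The 2 NF-Y boxes of Dhcr7 were likewise in a window inside the gene, chr7:143829964-143830213. Its windows at the gene start, chr7:143822917-143823166 and chr7:143823149-143823398, held 0. A match describes letters in this window and is not a measured binding site.

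The windows of 6 members are printed to show both branches side by side, 5′ to 3′ on the strand of the gene, with NF-Y boxes and the sterol regulatory element in capitals (ATTGG is CCAAT read on the other strand). Hmgcs1 was chosen for its sterol regulatory element, Mvk for its 5 NF-Y boxes, Mvd and Nsdhl as sterol genes that rose under DSS, Fasn as a fatty acid gene that rose, and Acly as a fatty acid gene that fell. The windows lie at chr13:119690101-119690350 (Hmgcs1, plus strand), chr5:114444019-114444268 (Mvk, plus strand), chr8:122443423-122443672 (Mvd, minus strand), chrX:72918271-72918520 (Nsdhl, plus strand), chr11:120824548-120824797 (Fasn, minus strand) and chr11:100528001-100528250 (Acly, minus strand).
Hmgcs1: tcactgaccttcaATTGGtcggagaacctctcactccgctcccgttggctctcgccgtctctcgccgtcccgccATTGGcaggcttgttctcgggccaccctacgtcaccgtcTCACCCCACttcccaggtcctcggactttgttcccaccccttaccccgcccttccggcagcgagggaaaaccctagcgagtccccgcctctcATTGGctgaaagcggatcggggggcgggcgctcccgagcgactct
Mvk: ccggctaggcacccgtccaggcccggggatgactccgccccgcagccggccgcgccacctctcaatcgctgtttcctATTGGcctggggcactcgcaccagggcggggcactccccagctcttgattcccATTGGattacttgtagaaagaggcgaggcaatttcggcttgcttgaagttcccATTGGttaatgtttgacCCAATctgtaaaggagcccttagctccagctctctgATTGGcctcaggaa
Mvd: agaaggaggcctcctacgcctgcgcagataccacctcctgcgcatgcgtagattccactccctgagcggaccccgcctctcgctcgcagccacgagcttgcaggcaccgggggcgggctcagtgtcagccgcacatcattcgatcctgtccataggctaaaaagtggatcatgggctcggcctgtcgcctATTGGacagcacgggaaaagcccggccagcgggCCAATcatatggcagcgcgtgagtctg
Nsdhl: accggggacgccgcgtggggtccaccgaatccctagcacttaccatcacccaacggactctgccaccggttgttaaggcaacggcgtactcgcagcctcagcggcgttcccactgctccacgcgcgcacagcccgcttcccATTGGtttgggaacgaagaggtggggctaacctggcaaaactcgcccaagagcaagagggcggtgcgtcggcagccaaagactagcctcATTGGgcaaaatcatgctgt
Fasn: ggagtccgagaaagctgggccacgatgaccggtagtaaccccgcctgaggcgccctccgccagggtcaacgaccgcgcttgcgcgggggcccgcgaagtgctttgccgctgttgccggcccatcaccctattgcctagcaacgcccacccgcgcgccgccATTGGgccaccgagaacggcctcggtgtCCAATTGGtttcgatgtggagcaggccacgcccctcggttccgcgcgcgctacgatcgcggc
Acly: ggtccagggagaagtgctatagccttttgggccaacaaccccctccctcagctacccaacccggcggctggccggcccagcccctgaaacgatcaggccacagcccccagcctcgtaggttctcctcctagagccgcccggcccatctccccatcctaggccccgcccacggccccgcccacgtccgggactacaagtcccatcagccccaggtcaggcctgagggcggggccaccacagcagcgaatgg
The Hmgcs1 window held 3 NF-Y boxes and 1 sterol regulatory element, with no base shared between them. Mvk held 5 NF-Y boxes, Mvd 2 and Nsdhl 2. Fasn held 3, of which the last pair overlap in CCAATTGG. Acly held 0 NF-Y boxes and 4 Sp1 boxes.

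Levels below are CPM, counts scaled to a common library size by trimmed mean of M values. They were not divided by gene length, so they are compared between libraries and not between genes. Differences are log2 fold changes ± SE from 1 edgeR quasi-likelihood fit over all 15 libraries, and genes under 0.05 after Benjamini-Hochberg adjustment over the 17477 genes tested were called. Library totals ran from 10.56 to 17.54 M counts. Tert was read at 23 to 40 counts in WT, 7 to 29 in VAA and 0 to 1 in KO libraries. WT untreated replicate 2 and KO untreated replicate 2 held 4647 and 4289 Y-linked counts against 356 to 714 in the other 13 libraries, and they are called the male libraries below. VAA DSS replicate 3 stood apart, with 1983 CPM summed over 5 fibroblast markers against 383.6 to 1016 in the others. Its sum over 4 stem and dividing cell markers was 227.5 CPM, against 437.7 to 1260 in the others. Summed over 8 adipocyte markers, WT DSS replicate 1 held 343.8 CPM, KO DSS replicate 2 held 317.3 and VAA untreated replicate 1 held 109.8, against 11.11 to 67.7 in the other 12 libraries.

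DSS against untreated colon, averaged over the 3 genotypes, raised most sterol genes and few fatty acid genes. Of the 29 members, 16 rose and 2 fell. Over all genes tested 22.5% rose and 20% fell. In the sterol branch 13 of 18 rose and 1 fell, with a median log2 fold change of 0.76, against a median of 0.01 over all genes. In the fatty acid branch 1 of 7 rose and 1 fell, with a median of 0.37, and among the regulators 2 of 4 rose, with a median of 0.16. Scaling to epithelial markers shifted all genes by -0.21, and the members called were then 13 higher and 3 lower. Under that scaling the share of higher genes among all called went from 52.9% to 26.4% in this comparison, from 53.1% to 36.0% for DSS in WT, from 53.3% to 50.5% for DSS in VAA, from 52.5% to 6.99% for DSS in KO, from 56.6% to 3.47% for KO against WT under DSS and from 39.0% to 4.64% for KO against VAA under DSS. The count of 18 called members was 22 without VAA DSS replicate 3, 15 without both male libraries and 12 without the 3 libraries high in adipocyte markers.

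The makeup of the tissue moved with DSS as well. All 6 absorptive colonocyte markers and all 5 goblet markers fell, with summed CPM of 3582 to 4646 untreated against 917.5 to 2254 under DSS for the first list and 12320 to 19510 against 4861 to 14270 for the second. All 5 smooth muscle markers fell, from 3192 to 5679 CPM to 483.3 to 2040. Of 5 neutrophil markers 4 rose, from 17.29 to 31.37 CPM to 37.61 to 359.1. Of 4 T and NK cell markers 4 rose, from 0.6468 to 2.129 CPM to 2.593 to 14.81, and of 5 macrophage markers 4 rose, from 94.63 to 175.7 CPM to 134.8 to 386.5. Of 7 adipocyte markers tested 4 rose, with a median log2 fold change of 1.87, and the summed CPM of all 8 listed was 11.11 to 109.8 untreated against 15.39 to 343.8 under DSS. Of 8 epithelial markers 3 rose and 1 fell, with 7452 to 9194 CPM against 7227 to 12550. Of 3 stem and dividing cell markers tested 1 rose and 1 fell. The 4 listed summed to 437.7 to 744 CPM untreated against 227.5 to 1260 under DSS, lowest in VAA DSS replicate 3. The part of these cells in the changes of sterol and fatty acid genes was not tested, and in bulk tissue fewer cells of a type and less RNA per cell cannot be told apart.

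**Figure D1:**
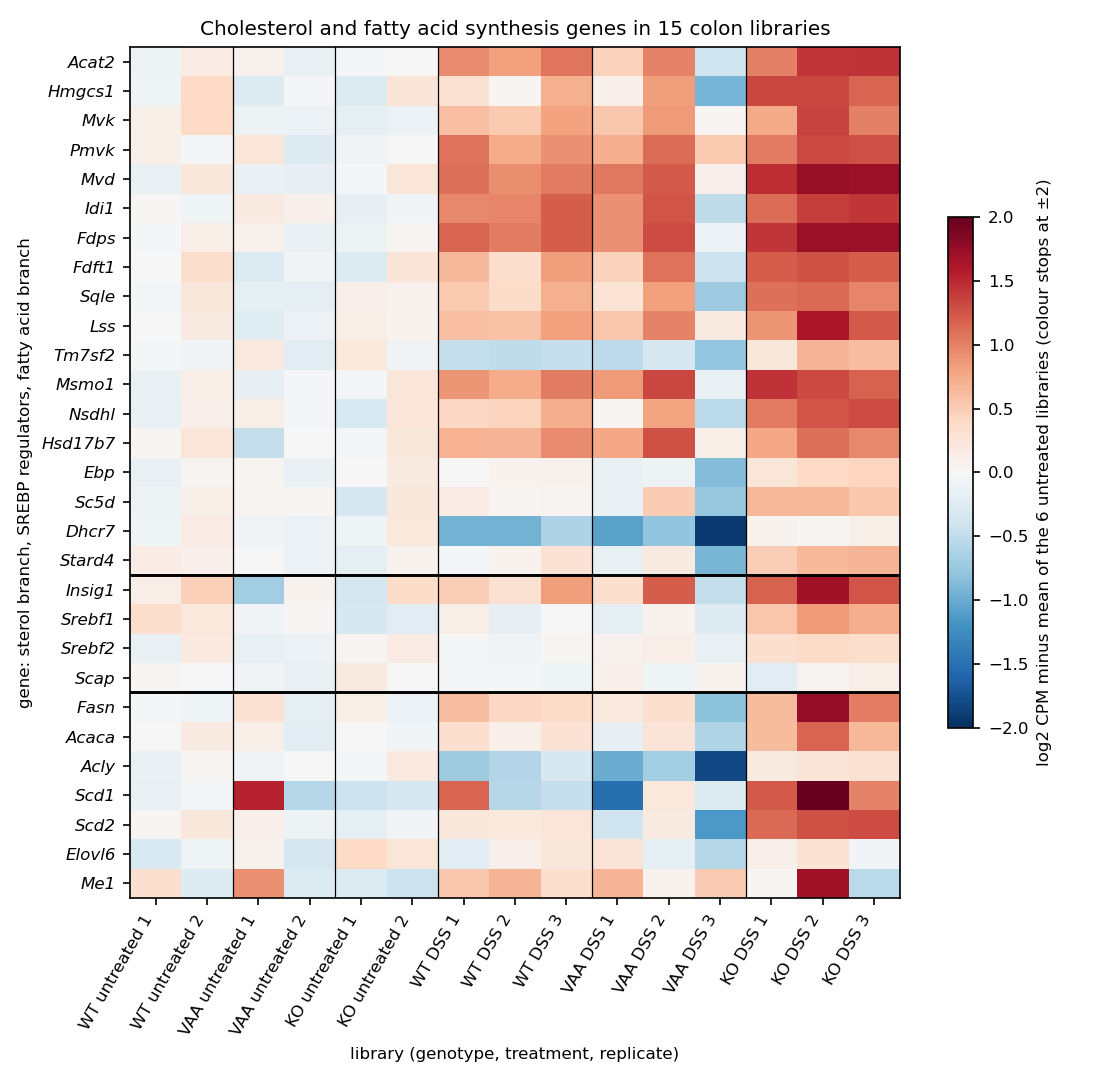
Level of each member (rows, in pathway order) in each of 15 libraries (columns), as log2 CPM minus the mean of the 6 untreated libraries; the heavy lines part the sterol branch, the regulators and the fatty acid branch. Most sterol rows are red in DSS columns other than VAA DSS replicate 3, Dhcr7 and Acly are blue in WT and VAA DSS columns and near white in KO DSS columns, and the Scd1 row is darkest in KO DSS replicate 2.

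The mevalonate arm, from acetyl-CoA to farnesyl diphosphate, was called throughout: 7 of 7 enzymes rose, with a median log2 fold change of 0.98. Fdps (chr3:89093588-89101959 on GRCm38), which makes farnesyl diphosphate, had CPM levels of 53.9 and 61.05 in untreated WT, 59.3 and 50.8 in untreated VAA, 51.7 and 57.7 in untreated KO, 125, 114 and 128 in WT DSS, 105, 137 and 51.1 in VAA DSS, and 149.8, 185 and 184 in KO DSS. Every DSS library except VAA DSS replicate 3 lay above every untreated library. The averaged log2 fold change of Fdps was 1.20 ± 0.17 (edgeR adjusted P = 8.2e-05). Mvd (chr8:122433601-122443422), the mevalonate diphosphate decarboxylase, had CPM levels of 16.8 and 21.7 in untreated WT, 17.03 and 16.7 in untreated VAA, 18.2 and 22.1 in untreated KO, 39.97, 35.6 and 38.2 in WT DSS, 38.5, 43.4 and 19.97 in VAA DSS, and 51.9, 62.2 and 61.4 in KO DSS. Its WT and KO DSS libraries were above all untreated ones, and VAA DSS replicate 3 fell within the untreated range. Mvd rose by 1.18 ± 0.15 (edgeR adjusted P = 3.6e-05). Pmvk, which phosphorylates mevalonate again, had CPM levels of 13.8 and 12.6 in untreated WT, 15.2 and 10.7 in untreated VAA, 12.2 and 12.8 in untreated KO, 27.2, 21.3 and 24.1 in WT DSS, 21.1, 27.8 and 18.4 in VAA DSS, and 26.4, 31.9 and 31.2 in KO DSS. All 9 DSS libraries were above all 6 untreated ones, and VAA DSS replicate 3 was the lowest of the 9. Its averaged rise was 0.98 ± 0.12 (edgeR adjusted P = 2.6e-05), the smallest adjusted P among the 29 members.

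Idi1, the isopentenyl diphosphate isomerase, had CPM levels of 82.2 and 75.99 in untreated WT, 91.7 and 87.1 in untreated VAA, 71.99 and 77.8 in untreated KO, 157, 158 and 187 in WT DSS, 152, 193 and 57.04 in VAA DSS, and 175, 211 and 217 in KO DSS. VAA DSS replicate 3 was below every untreated library and the other 8 DSS libraries were above every one. Idi1 rose by 1.03 ± 0.20 (edgeR adjusted P = 0.00093). Acat2, the cytosolic acetyl-CoA acetyltransferase that starts the route, had CPM levels of 27.8 and 33.4 in untreated WT, 31.8 and 27 in untreated VAA, 29.4 and 29.98 in untreated KO, 57.3, 52.7 and 62.9 in WT DSS, 40.9, 59.5 and 22.6 in VAA DSS, and 59.6, 80.4 and 81.2 in KO DSS. Here too VAA DSS replicate 3 was below every untreated library and the other DSS libraries were above. The rise was 0.90 ± 0.17 (edgeR adjusted P = 0.00078). Mvk, mevalonate kinase, had CPM levels of 17.8 and 21.6 in untreated WT, 15.2 and 15.1 in untreated VAA, 14.6 and 15.1 in untreated KO, 24.9, 23.6 and 28.8 in WT DSS, 23.8, 29.6 and 16.8 in VAA DSS, and 27.8, 42.03 and 32.9 in KO DSS. Its DSS libraries were above all untreated ones except VAA DSS replicate 3, and the rise was 0.74 ± 0.13 (edgeR adjusted P = 0.00052). Hmgcs1, the cytosolic HMG-CoA synthase and the member with the sterol regulatory element printed above, had CPM levels of 267 and 377 in untreated WT, 239 and 277 in untreated VAA, 236 and 338 in untreated KO, 351, 292 and 468 in WT DSS, 305, 505 and 149 in VAA DSS, and 719, 721 and 634 in KO DSS. WT DSS levels of Hmgcs1 overlapped the untreated ones, and KO DSS levels were the highest. Its rise was 0.59 ± 0.21 (edgeR adjusted P = 0.039), and it was kept in 5 of 15 fits that each left out 1 library.

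The post-squalene arm, from squalene synthase to cholesterol, was less uniform: 6 of 10 enzymes rose, 1 fell and 3 did not pass, with a median of 0.63. Msmo1, a sterol methyl oxidase that helps take off the C4 methyl groups, had CPM levels of 99.7 and 119.6 in untreated WT, 97.8 and 108 in untreated VAA, 109 and 131 in untreated KO, 202, 184 and 226 in WT DSS, 198, 279.6 and 99.9 in VAA DSS, and 298, 276 and 248 in KO DSS. VAA DSS replicate 3 lay among the untreated libraries and the other 8 DSS libraries lay above them. Its rise was 1.00 ± 0.17 (edgeR adjusted P = 0.00044). Lss, lanosterol synthase, had CPM levels of 50.9 and 56.88 in untreated WT, 42.6 and 46.5 in untreated VAA, 54.8 and 52.8 in untreated KO, 76.3, 75.9 and 89.3 in WT DSS, 73.9, 101 and 56.94 in VAA DSS, and 92.8, 157 and 119 in KO DSS. All 9 DSS libraries were above the 6 untreated ones, VAA DSS replicate 3 by the least. Lss rose by 0.86 ± 0.13 (edgeR adjusted P = 2.0e-04). Hsd17b7, a sterol ketoreductase, had CPM levels of 25.1 and 29.1 in untreated WT, 17.7 and 24.3 in untreated VAA, 24.2 and 28.6 in untreated KO, 39.5, 39.3 and 47.4 in WT DSS, 41.8, 59.4 and 26.6 in VAA DSS, and 42.1, 52.5 and 47.9 in KO DSS. VAA DSS replicate 3 lay within the untreated range, and KO DSS levels lay between those of VAA DSS replicates 1 and 2. Hsd17b7 rose by 0.84 ± 0.15 (edgeR adjusted P = 0.00067).

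Fdft1, squalene synthase, had CPM levels of 66.2 and 84.1 in untreated WT, 54.3 and 62.9 in untreated VAA, 54.6 and 78.4 in untreated KO, 103, 82.9 and 117 in WT DSS, 91.02, 140.2 and 48.97 in VAA DSS, and 152, 159.7 and 153 in KO DSS. WT DSS replicate 2 lay within the untreated range, VAA DSS replicate 3 below it and the other 7 DSS libraries above it. Fdft1 rose by 0.77 ± 0.18 (edgeR adjusted P = 0.0042). Nsdhl, a C4 sterol decarboxylase on chromosome X, had CPM levels of 24.9 and 29.6 in untreated WT, 29.8 and 27.2 in untreated VAA, 22.3 and 32.4 in untreated KO, 36.7, 37.5 and 45.3 in WT DSS, 28.2, 47.7 and 18.9 in VAA DSS, and 56.3, 65.7 and 68.1 in KO DSS. VAA DSS replicate 1 lay within the untreated range of Nsdhl, replicate 3 below it, and KO DSS levels were the highest. Nsdhl rose by 0.64 ± 0.17 (edgeR adjusted P = 0.0078). Sqle, squalene epoxidase, a rate-limiting step of the later route, had CPM levels of 104 and 122 in untreated WT, 91.95 and 92.7 in untreated VAA, 113 and 112 in untreated KO, 151, 136 and 172 in WT DSS, 128, 185 and 63.4 in VAA DSS, and 225, 231 and 207 in KO DSS. All DSS libraries other than VAA DSS replicate 3 were above the untreated ones. Sqle rose by 0.62 ± 0.17 (edgeR adjusted P = 0.010).

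Dhcr7 (chr7:143823145-143848410 on GRCm38), a reductase at the end of the route, went the other way. It had CPM levels of 94.4 and 112 in untreated WT, 95.1 and 92.6 in untreated VAA, 93.8 and 115 in untreated KO, 52, 51.97 and 65.2 in WT DSS, 47.6, 58.05 and 26.6 in VAA DSS, and 105, 101 and 108 in KO DSS. WT and VAA DSS libraries were all below every untreated library, and KO DSS libraries lay within the untreated range. Averaged over genotypes Dhcr7 fell by 0.65 on the log2 scale (SE 0.13, edgeR adjusted P = 0.0016). Tm7sf2, a sterol reductase, had CPM levels of 16.1 and 15.7 in untreated WT, 18.9 and 14.1 in untreated VAA, 19.02 and 15.7 in untreated KO, 11.8, 11.7 and 11.98 in WT DSS, 11.4, 13.01 and 9.60 in VAA DSS, and 19.3, 26.4 and 25.2 in KO DSS. WT and VAA DSS levels of Tm7sf2 were below all untreated ones while KO DSS levels were above them. The averaged log2 change of Tm7sf2 was -0.17 ± 0.11 (edgeR adjusted P = 0.22). Ebp, the sterol isomerase, and Sc5d, the sterol desaturase, had averaged log2 values of 0.02 ± 0.11 and 0.21 ± 0.15 (edgeR adjusted P = 0.88 and 0.28). Stard4, a cytosolic sterol transfer protein, was at 168.4 to 211.9 CPM untreated and 102.2 to 308 under DSS, with an averaged log2 value of 0.16 ± 0.13 (edgeR adjusted P = 0.34).

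The sources used here do not say whether counting used strand, and 11 of the 29 members share exon sequence with another annotated gene in GENCODE, so their counts are uncertain to that extent. The longest shared stretch is 774 bases between Fdft1 and Ctsb, on the opposite strand, and Ctsb had an averaged log2 value of 0.15 ± 0.07 (edgeR adjusted P = 0.13). Tm7sf2 shares 532 bases with Vps51, on the same strand, and Vps51 had 0.01 ± 0.07 (edgeR adjusted P = 0.94). Srebf1 shares 109 bases with Rai1, on the opposite strand, and Rai1 had 0.01 ± 0.09 (edgeR adjusted P = 0.96). Fdps shares 197 bases with the gene model Gm43738, on the same strand. Hmgcs1, Idi1, Lss, Scap, Scd2, Elovl6 and Me1 overlap antisense, microRNA or unclassified models by 30 to 458 bases.

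Among the regulators, Insig1, which retains the SREBP complex and is itself a target of SREBP, had CPM levels of 81.2 and 103 in untreated WT, 46.1 and 78.1 in untreated VAA, 58.02 and 96.2 in untreated KO, 105, 91.9 and 132 in WT DSS, 93.3, 171 and 53.3 in VAA DSS, and 168, 238 and 178 in KO DSS. The untreated levels of Insig1 were wide, 3 DSS libraries lay within them (WT replicate 2 and VAA replicates 1 and 3) and the KO DSS libraries lay above. Insig1 rose by 0.79 ± 0.23 (edgeR adjusted P = 0.013), with no call without VAA untreated replicate 1, without KO untreated replicate 1 or without the 3 libraries high in adipocyte markers. Srebf1 (chr11:60199089-60222581 on GRCm38) had CPM levels of 115 and 104 in untreated WT, 86.7 and 91.99 in untreated VAA, 72.4 and 77.1 in untreated KO, 97.95, 80.8 and 90.5 in WT DSS, 79.3, 94.5 and 75.1 in VAA DSS, and 132, 162 and 149.5 in KO DSS. KO DSS libraries were above every other library, KO untreated libraries were among the lowest, and WT DSS libraries were below the WT untreated ones. The averaged value for Srebf1 was 0.20 ± 0.08 (edgeR adjusted P = 0.0496). It was kept in 3 of 15 fits that each left out 1 library and under 1 of 9 other settings. It turned to -0.02 when libraries were scaled to 8 epithelial markers. Srebf2 ran from 214.1 to 309.7 CPM over the 15 libraries and Scap, the SREBP escort protein, from 56.3 to 75.0 CPM. Their averaged log2 values were 0.12 ± 0.07 and -0.01 ± 0.07 (edgeR adjusted P = 0.20 and 0.92).

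In the fatty acid branch, Fasn (chr11:120805846-120824547), fatty acid synthase, had CPM levels of 298 and 286 in untreated WT, 369.9 and 269 in untreated VAA, 329.7 and 279.7 in untreated KO, 465, 404 and 397 in WT DSS, 347, 380.0 and 172 in VAA DSS, and 469, 1026 and 620.2 in KO DSS. KO DSS replicate 2 was the highest library and VAA DSS replicate 3 the lowest. Fasn rose by 0.55 ± 0.19 (edgeR adjusted P = 0.032), and it was kept in 6 of 15 fits that each left out 1 library. It was also kept under 4 of 9 other settings, and lost with a term for sex, with epithelial scaling and by limma. It was lost too without both male libraries and without the 3 libraries high in adipocyte markers. Acly (chr11:100476353-100528000), the ATP citrate lyase that supplies cytosolic acetyl-CoA to both branches, had CPM levels of 549 and 611 in untreated WT, 572 and 597 in untreated VAA, 589.5 and 685 in untreated KO, 365, 398 and 477 in WT DSS, 300.3, 368 and 171 in VAA DSS, and 676, 712 and 736 in KO DSS. Its WT and VAA DSS libraries were all below the untreated ones and its KO DSS libraries were not. Averaged over genotypes Acly fell by 0.47 on the log2 scale (SE 0.13, edgeR adjusted P = 0.013), with no call without the 3 libraries high in adipocyte markers, without both male libraries or with a term for sex.

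Acaca, acetyl-CoA carboxylase, had CPM levels of 154 and 176 in untreated WT, 168 and 133 in untreated VAA, 155 and 149.5 in untreated KO, 196, 167 and 189 in WT DSS, 139, 186 and 102 in VAA DSS, and 242, 348 and 247 in KO DSS. KO DSS libraries were the highest and the remaining DSS libraries overlapped the untreated ones. Its averaged value was 0.32 ± 0.13 (edgeR adjusted P = 0.060). Scd2 (chr19:44293674-44306864), a stearoyl-CoA desaturase, had CPM levels of 1189 and 1360 in untreated WT, 1250 and 1078 in untreated VAA, 1011 and 1112 in untreated KO, 1360, 1344 and 1379 in WT DSS, 883, 1322 and 524 in VAA DSS, and 2543, 2795 and 2859 in KO DSS. Its KO DSS levels lay far above all other libraries, which overlapped one another. The averaged value for Scd2 was 0.37 ± 0.15 (edgeR adjusted P = 0.066). Elovl6, the elongase that makes stearate, ran from 42.83 to 83.63 CPM. Both untreated KO libraries of Elovl6 were above the other untreated ones and the DSS libraries of the 3 genotypes overlapped, and its averaged value was 0.01 ± 0.12 (edgeR adjusted P = 0.98).

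Scd1 (chr19:44394455-44407879), a desaturase on the same chromosome as Scd2, and Me1, the malic enzyme that yields NADPH for fatty acid synthesis, varied widely between replicates of a group. Scd1 had CPM levels of 82.1 and 89.4 in untreated WT, 265 and 61.5 in untreated VAA, 67.5 and 71.5 in untreated KO, 205, 61.5 and 66.5 in WT DSS, 32.03, 105 and 75.9 in VAA DSS, and 214, 502 and 182 in KO DSS. The highest Scd1 level of each of the groups VAA untreated, KO untreated, WT DSS and KO DSS was in the library of that group with the most adipocyte marker RNA. In WT untreated and VAA DSS it was not. VAA DSS replicate 3 held 67.7 CPM of adipocyte markers and replicate 2 held 41.28, with Scd1 at 75.9 and 105 CPM. Me1 had CPM levels of 12.9 and 8.68 in untreated WT, 19.5 and 8.60 in untreated VAA, 8.60 and 7.71 in untreated KO, 15.02, 16.6 and 13.2 in WT DSS, 16.7, 10.9 and 14.7 in VAA DSS, and 10.62, 33.6 and 7.14 in KO DSS. Its 2 highest libraries were KO DSS replicate 2 and VAA untreated replicate 1. Averaged over genotypes the log2 values were 0.43 ± 0.38 for Scd1 and 0.51 ± 0.30 for Me1 (edgeR adjusted P = 0.40 and 0.19). The adipocyte markers include Adipoq, at 22.6 CPM in WT DSS replicate 1, 14.9 in KO DSS replicate 2 and 5.30 in VAA untreated replicate 1, against 0.0673 to 1.91 in the other libraries. Adipocytes express Scd1, Fasn and Me1 strongly, and the part of adipocyte RNA in these levels was not tested.

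**Figure D2:**
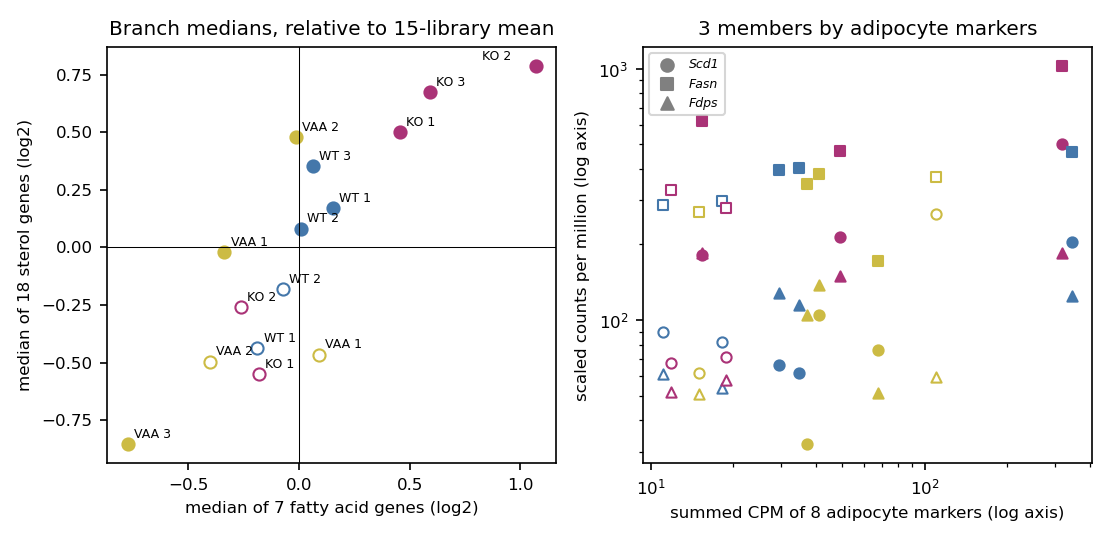
Left, the median over the 18 sterol genes against the median over the 7 fatty acid genes in each library (log2 CPM minus the mean over 15 libraries; filled points are DSS, open points untreated, WT is blue, VAA yellow and KO purple, and labels give genotype and replicate). Right, Scd1, Fasn and Fdps in each library against summed CPM of 8 adipocyte markers, both axes logarithmic. Scd1 and Fasn are highest in the KO library at 317.3 CPM of markers. In WT DSS replicate 1, at 343.8 CPM of markers, Scd1 is at 205 and Fasn at 465 CPM. Fdps is at 184, 149.8 and 185 CPM in the KO DSS libraries at 15.39, 49.17 and 317.3 CPM of markers.

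The contrast of the 2 branches was also taken within each library, as the difference between the sterol and the fatty acid median. On the log2 scale this difference ran from -0.56 to 0.01 in untreated libraries, from 0.02 to 0.29 in WT DSS, from -0.08 to 0.49 in VAA DSS and from -0.28 to 0.08 in KO DSS. The DSS ranges overlapped the untreated range in VAA and KO and did not in WT. Over the fit, the sterol median exceeded the fatty acid median by 0.39 log2 units, against a pooled SD of 0.23 for that difference between libraries of a group. By genotype the 2 medians were 0.50 and 0.23 in WT, 0.54 and -0.09 in VAA, and 1.20 and 1.07 in KO. These are descriptions of chosen lists and carry no test.

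Taken 1 genotype at a time, DSS in WT colon raised 6 members and lowered 1, where 14.1% of all genes rose and 12.5% fell. The 6 were sterol genes: Fdps 1.09 ± 0.29, Idi1 1.08 ± 0.34, Mvd 0.98 ± 0.25, Acat2 0.91 ± 0.29, Msmo1 0.90 ± 0.30 and Pmvk 0.88 ± 0.20. Msmo1 was called in 6 of 15 fits that each left out 1 library. Dhcr7 fell by 0.87 (SE 0.23, edgeR adjusted P = 0.015). No fatty acid gene and no regulator passed. Acly had -0.49 ± 0.23 and Srebf1 -0.29 ± 0.13 (edgeR adjusted P = 0.13 and 0.12). The count of 7 was 0 without both male libraries and 1 without the 3 libraries high in adipocyte markers. Leaving out 1 untreated WT library gave 2 (replicate 1) or 1 (replicate 2), and leaving out 1 WT DSS library gave 4, 3 and 4 for replicates 1 to 3 respectively. It was 11 without VAA DSS replicate 3, which is in neither group but enters the shared fit. Scaling to epithelial markers gave 6 higher and 3 lower members, with all genes shifted by -0.17.

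In VAA colon DSS raised 5 members and lowered 2, where 10.9% of all genes rose and 9.54% fell. The 5 were Hsd17b7 1.03 ± 0.27, Mvd 1.02 ± 0.26, Msmo1 0.91 ± 0.30, Pmvk 0.80 ± 0.20 and Lss 0.80 ± 0.23, all sterol genes. Msmo1 was called in 1 of 15 fits that each left out 1 library and under 5 of 10 other settings. Dhcr7 fell by 1.08 (SE 0.23, edgeR adjusted P = 0.0049) and Acly fell by 1.06 (SE 0.23, edgeR adjusted P = 0.0053). The count of 7 was 14 without VAA DSS replicate 3, with 12 higher and 2 lower. Leaving out either untreated VAA library gave 3. The count was 1 without the 3 libraries high in adipocyte markers. A fit of the VAA libraries alone called 0 by the same edgeR test, where the fit over all libraries had 10 members at an unadjusted P under 0.05 (32.8% of all genes), DESeq2 called 10 and limma called 6.

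In KO colon DSS raised 14 members and lowered 0 by the edgeR test, where 5.59% of all genes rose and 5.06% fell. At an unadjusted P under 0.05 there were 22 members, all higher, where 26.6% of all genes were under it in either direction, and DESeq2 called 20 and limma 13. All 3 KO DSS libraries were above both KO untreated ones for 24 of 29 members, where 24.1% of all genes did so. In the sterol branch 10 of 18 rose, led by Fdps 1.66 ± 0.29, Mvd 1.54 ± 0.26 and Idi1 1.42 ± 0.34. In the fatty acid branch 3 of 7 rose: Scd2 1.36 ± 0.27 (edgeR adjusted P = 0.0083), Fasn 1.21 ± 0.34 (0.038) and Acaca 0.87 ± 0.22 (0.028). Fasn was called in 7 and Acaca in 12 of 15 fits that each left out 1 library. Both calls were lost with a term for sex, with epithelial scaling, without the 3 libraries high in adipocyte markers, without both male libraries and by limma. Srebf1 rose by 0.99 ± 0.13 (edgeR adjusted P = 0.00084), and Insig1 and Hmgcs1 missed with 1.34 ± 0.40 and 1.27 ± 0.38 (edgeR adjusted P = 0.0502 and 0.0501). Dhcr7 had 0.00 ± 0.23 and Acly 0.15 ± 0.23 (edgeR adjusted P = 0.99 and 0.73). Leaving out 1 untreated KO library took the count of 14 to 2 (replicate 1) or 5 (replicate 2), and leaving out KO DSS replicate 2 took it to 8. The count was 4 without the 3 libraries high in adipocyte markers and 3 without both male libraries. Scaling to epithelial markers gave 12 higher and 2 lower, with all genes shifted by -0.48. The median of the members stood 1.19 above that of all genes, an offset that a common scaling leaves nearly as it was by construction.

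**Figure D3:**
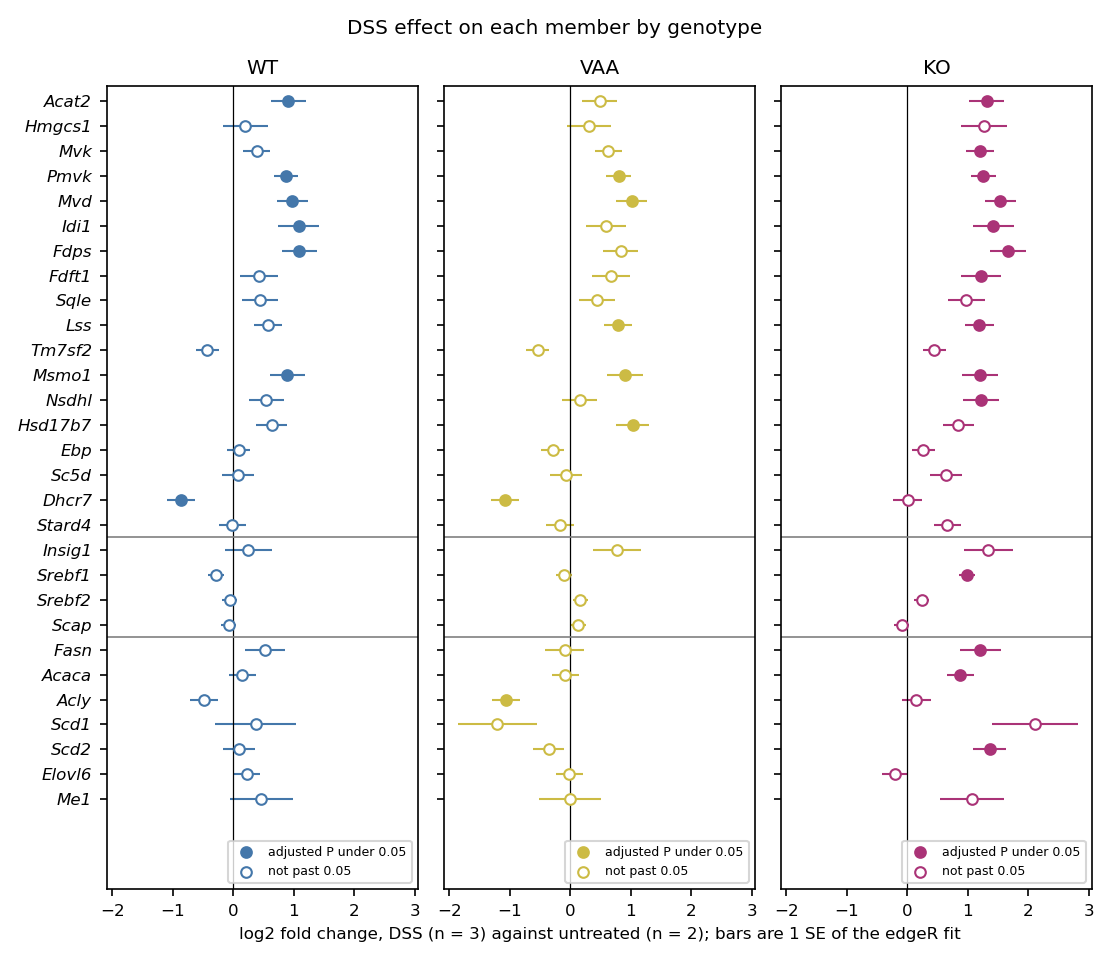
Log2 fold change of each member under DSS in WT, VAA and KO colon, with bars of 1 SE of the edgeR fit and filled points at an adjusted P under 0.05. Mevalonate genes lie to the right in each panel, Dhcr7 lies at -0.87, -1.08 and 0.00, and 27 of 29 members lie to the right of 0 in KO (22 with epithelial scaling) against 22 in WT (18) and 16 in VAA (17).

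The 3 DSS effects share no libraries, and their differences were tested as interactions. For KO minus WT the edgeR test called 0 of 29 members and 0% of all genes, with 6 members at an unadjusted P under 0.05 (9.93% of all genes) and 1 call each by DESeq2 and limma. The 6 were Srebf1 1.27 ± 0.18, Scd2 1.27 ± 0.37, Tm7sf2 0.87 ± 0.27, Dhcr7 0.87 ± 0.33, Mvk 0.82 ± 0.31 and Acaca 0.72 ± 0.31, all with the higher value in KO. Srebf1 was the 1 gene called by DESeq2 (adjusted P = 2.9e-06) and by limma (adjusted P = 0.041), where edgeR gave an adjusted P of 0.13. Without VAA DSS replicate 3 the edgeR test called Srebf1 and Scd2, and without VAA DSS replicate 2 it called Srebf1. For KO minus VAA it called 0 members and 0.0687% of all genes, with 10 members at an unadjusted P under 0.05 (14.5% of all genes), 4 called by DESeq2 (Tm7sf2, Srebf1, Acly and Scd2) and 1 by limma (Srebf1). Srebf1 had 1.09 ± 0.18 and Scd2 1.72 ± 0.37 in that contrast (edgeR adjusted P = 0.060 and 0.086). Leaving out VAA DSS replicate 2 gave 9 calls, VAA DSS replicate 3 gave 2 and WT DSS replicate 3 gave 1. For VAA minus WT the edgeR test called 0 members and 0% of all genes, with 0 members at an unadjusted P under 0.05 (7.2% of all genes) and 0 by DESeq2 and by limma.

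Between KO and WT colon under DSS, the log2 fold change was above 0 for 29 of 29 members, with a median of 0.53 against -0.01 over all genes, though few of the differences passed. With libraries scaled to epithelial markers it was above 0 for 20 of 29. The edgeR test called 5 members higher and 0 lower, where 3.21% of all genes were higher and 2.46% lower. At an unadjusted P under 0.05 there were 17 members, all higher, where 21.9% of all genes were under it, and DESeq2 called 8 and limma 4. All 3 KO libraries were above all 3 WT ones for 20 of 29 members, where 16.4% of all genes did so. The called members were Tm7sf2 at 1.00 ± 0.17 (edgeR adjusted P = 0.0078), Dhcr7 at 0.89 ± 0.21 (0.029), Srebf1 at 0.72 ± 0.12 (0.0064), Acly at 0.78 ± 0.21 (0.047) and Scd2 at 1.01 ± 0.23 (0.028). None of the 7 mevalonate genes passed, with log2 values from 0.26 to 0.90. Vps51, which shares exon sequence with Tm7sf2, had 0.22 ± 0.10 (edgeR adjusted P = 0.23).

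**Figure D4:**
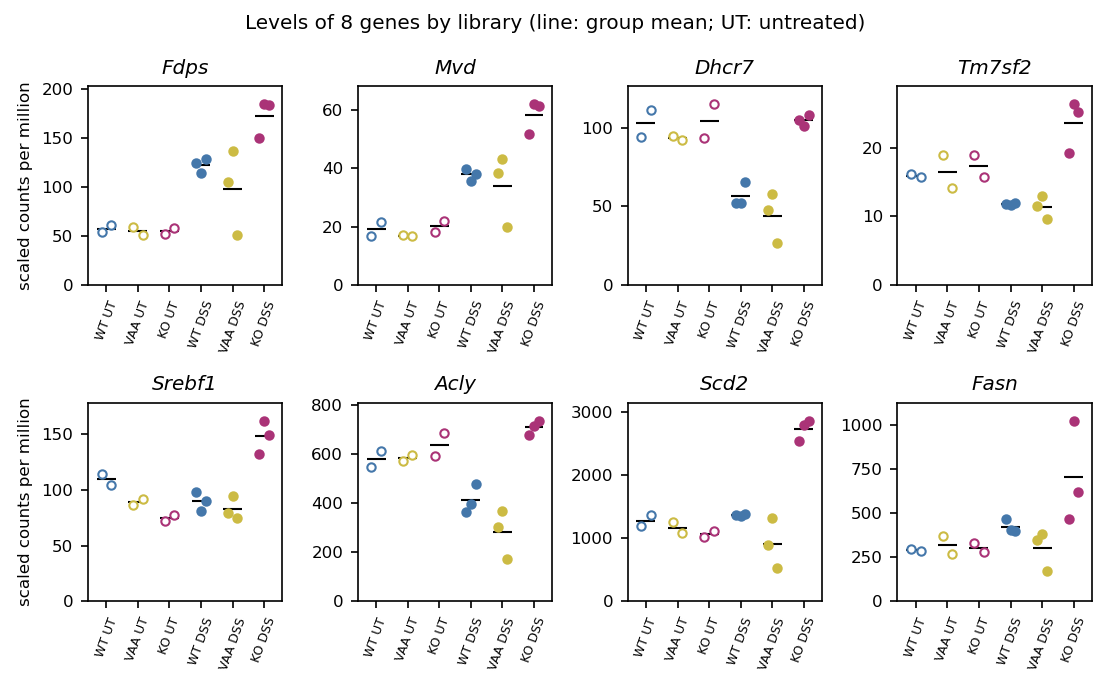
Scaled CPM of 8 members in every library by group, with group means as lines; open points are untreated and filled points are DSS (WT blue, VAA yellow, KO purple). Group means of Fdps and Mvd are higher under DSS in each genotype, with VAA DSS replicate 3 of Fdps among the untreated levels, those of Dhcr7, Tm7sf2 and Acly are lower under DSS in WT and VAA and not in KO, and Srebf1 and Scd2 are highest in KO DSS.

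The count of 5 moved with single libraries. Over 15 fits that each left out 1 library, Tm7sf2 and Srebf1 were called in 15, Dhcr7 in 10, Scd2 in 9 and Acly in 3. It was 19 without VAA DSS replicate 3 and 10 without VAA DSS replicate 2, neither of which is in the comparison, and 19 when only the WT and KO DSS libraries were fitted. Leaving out any 1 of WT DSS replicates 1 and 2 or of the 3 KO DSS replicates gave 2. Without the 3 libraries high in adipocyte markers it was 0, with 38 of all genes called, and the median log2 values were 0.44 in the sterol branch and 0.46 in the fatty acid branch, against 0.51 and 0.74 with them. Without both male libraries it was 2.

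The cell makeup of the KO DSS libraries differed as well. All 5 goblet cell markers were higher in KO than in WT under DSS, and summed goblet CPM was 11580 to 14270 in KO against 4994 to 7411 in WT. Of 8 epithelial markers 2 were called higher by edgeR, and 7 were at an unadjusted P under 0.05. All 8 had a log2 value above 0, with a median of 0.48, and their summed CPM was 10700 to 12550 against 8065 to 8569. None of 7 adipocyte markers tested was called by edgeR, also at an unadjusted P under 0.05, with summed CPM of 15.39 to 317.3 against 29.27 to 343.8. Of 5 neutrophil markers 4 were lower, with summed CPM of 37.61 to 44.59 against 193.1 to 247.3. Scaling the libraries to the 8 epithelial markers shifted all genes by -0.43 and gave 3 called members, with a median of 0.11 in the sterol branch and 0.35 in the fatty acid branch. The part of cell makeup in these differences was not tested.

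KO against VAA under DSS gave 16 members higher and 0 lower by the edgeR test, where 6.01% of all genes were higher and 9.41% lower. At an unadjusted P under 0.05 there were 23 members, all higher, where 28.2% of all genes were under it, and DESeq2 called 20 and limma 15. All 3 KO libraries were above all 3 VAA ones for 19 members, where 13.7% of all genes did so. In the sterol branch 10 of 18 were higher, with a median of 0.75, among them Dhcr7 1.24 ± 0.21, Hmgcs1 1.11 ± 0.33, Tm7sf2 1.05 ± 0.17, Nsdhl 1.00 ± 0.26, Stard4 0.84 ± 0.20 and Ebp 0.69 ± 0.17. Of the 10, Fdps was called in 2, Acat2 and Lss in 3 each and Hmgcs1 in 7 of 15 fits that each left out 1 library. The others of the 10 were called in 12 to 15 of these fits. In the fatty acid branch 5 of 7 were higher, with a median of 1.23: Scd1 2.08 ± 0.61, Scd2 1.59 ± 0.24, Acly 1.34 ± 0.21, Fasn 1.23 ± 0.29 and Acaca 0.97 ± 0.20. Scd1 was called in 9 of the 15 fits that each left out 1 library. It was not called with the replicate number as a block, without both male libraries or with the 2 groups fitted alone. Srebf1 was higher by 0.84 ± 0.12 (edgeR adjusted P = 0.0011). Without VAA DSS replicate 3 the calls of Acat2, Hmgcs1, Lss and Scd1 were lost and the others of the 16 were kept. Leaving out VAA DSS replicate 1 took the count of 16 to 10, and leaving out VAA DSS replicate 2 took it to 25. Leaving out a KO DSS library took the count to 7 (replicate 2) or 9 (replicate 3). It was 6 without the 3 libraries high in adipocyte markers and 5 when the 2 groups were fitted alone. Scaling to epithelial markers gave 10 higher and 1 lower, with all genes shifted by -0.46.

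Markers of other cells differed between KO and VAA under DSS too. Of the 5 fibroblast markers 5 were lower in KO, with summed CPM of 383.6 to 569 against 696.8 to 1983. Of the 5 goblet markers 5 were higher, with 11580 to 14270 CPM against 4861 to 6324. Of 7 adipocyte markers tested 0 were called by edgeR, also at an unadjusted P under 0.05, with 15.39 to 317.3 CPM against 37.14 to 67.7. Of 8 epithelial markers 5 were higher, with 10700 to 12550 CPM against 7227 to 9320. Of 5 neutrophil markers 4 were lower, with 37.61 to 44.59 CPM against 222.8 to 359.1. Lower too were 3 of 3 endothelial markers, with 31.52 to 38.16 CPM against 48.05 to 133.7, and 3 of 5 glial and myelin markers, with 5.049 to 6.764 CPM against 12.7 to 56.94. Of 3 stem and dividing cell markers tested 1 was higher, and the 4 listed summed to 727.3 to 1040 CPM against 227.5 to 1058. The part of these cells in the higher sterol and fatty acid gene levels was not tested.

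VAA against WT under DSS called 0 members by the edgeR test, and 0.00572% of all genes. At an unadjusted P under 0.05 there were 3 members, Acly at -0.56 ± 0.21, Scd2 at -0.58 ± 0.23 and Ebp at -0.37 ± 0.17, where 16.3% of all genes were under it, and DESeq2 and limma called 0. Without VAA DSS replicate 2 the test called Acat2, Acly and Scd2 lower in VAA. These 3 comparisons under DSS share libraries in pairs, so their values are side by side and not independent.

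**Figure D5:**
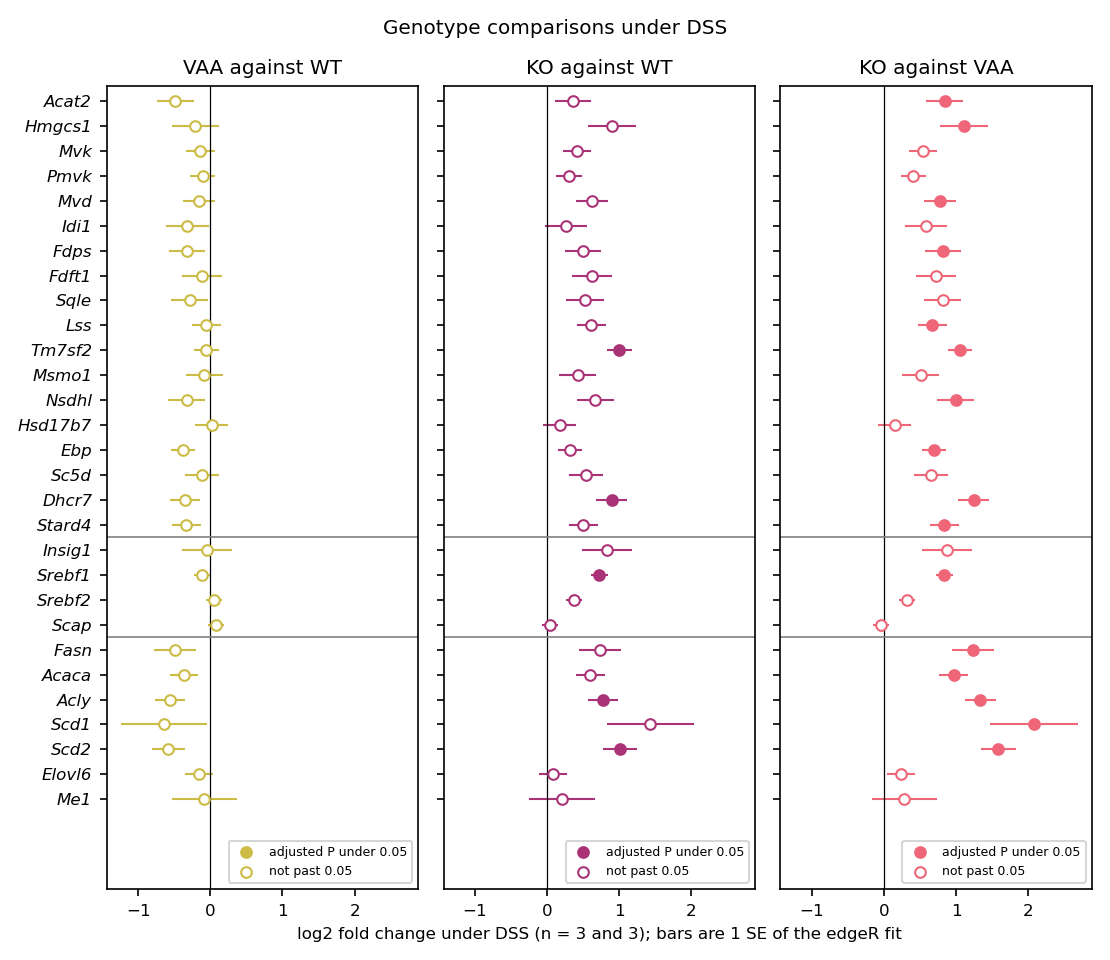
Log2 fold change of each member between genotypes under DSS, with bars of 1 SE of the edgeR fit and filled points at an adjusted P under 0.05. No point is filled for VAA against WT, 5 are filled for KO against WT and 16 for KO against VAA.

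Without DSS no member was called between genotypes. KO against WT, VAA against WT and KO against VAA each called 0 members and 0% of all genes by the edgeR test, and DESeq2 and limma called 0. At an unadjusted P under 0.05 there were 2, 0 and 0 members, where 2.01%, 1.33% and 2.29% of all genes were under it. The 2 were Srebf1 at -0.55 ± 0.14 and Elovl6 at 0.51 ± 0.24 in KO against WT (edgeR adjusted P = 1 for both). Untreated KO levels of Srebf1, at 72.4 and 77.1 CPM, were below the untreated WT levels of 115 and 104, whereas its KO DSS levels were above the WT DSS ones.

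Other genes of the pathway were read from a list of 34, of which 33 were tested and Npc1l1 did not pass the expression filter. Averaged over genotypes, DSS raised 16 of them and lowered 9, with a median log2 value of 0.22. Among direct partners of the sterol branch, Cyp51, the lanosterol demethylase, rose by 0.74 ± 0.19 and Lbr, a sterol reductase, by 0.67 ± 0.14, and Ggps1 had -0.08 ± 0.08, not called. Insig2 rose by 0.33 ± 0.09 and Mbtps2, a protease that cuts SREBP, by 0.22 ± 0.08, while Mbtps1, the other protease, fell by 0.15 (SE 0.06). Among sterol handling genes, Soat2 0.89 ± 0.19, Abca1 0.77 ± 0.22 and Abcg1 0.50 ± 0.16 rose, and Soat1 -0.51 ± 0.09, Npc1 -0.42 ± 0.07 and Mylip -0.72 ± 0.20 fell.

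On the fatty acid side of that list, Dgat2, which makes triglyceride, rose by 1.73 ± 0.18, Acacb by 1.29 ± 0.34, the citrate carrier Slc25a1 by 0.54 ± 0.07, Elovl1 by 0.53 ± 0.08, Elovl5 by 0.49 ± 0.09 and Dgat1 by 0.29 ± 0.09. Acss2, the acetyl-CoA synthetase, fell by 1.09 (SE 0.17), Mlxipl, the ChREBP transcription factor, by 0.81 (SE 0.17), Fads2 by 0.65 (SE 0.15), Gpam by 0.47 (SE 0.10) and Nr1h3, the liver X receptor alpha gene, by 0.47 (SE 0.13). Acss2 had CPM levels of 144 and 155 in untreated WT, 147 and 147 in untreated VAA, 147 and 182 in untreated KO, 56.2, 53.1 and 84.7 in WT DSS, 38.3, 69.04 and 25.4 in VAA DSS, and 120.4, 138 and 134 in KO DSS. Its WT and VAA DSS libraries were all below the untreated ones, as were those of Acly and Dhcr7, and its KO DSS libraries were also below them, by less. KO against WT under DSS called 3 of the 33 higher, Acss2 1.02 ± 0.27, Fads2 1.12 ± 0.24 and Lpcat3 0.65 ± 0.14, and 0 lower. In that comparison 3.21% of all genes were higher and 2.46% lower. KO against VAA under DSS called 6 higher, among them Acss2 1.56 ± 0.28, Fads2 1.71 ± 0.24, Lpcat3 0.90 ± 0.14, Mlxipl 0.91 ± 0.27 and Fads1 0.66 ± 0.21, and 2 lower, Abca1 -1.68 ± 0.33 and Dgat2 -0.87 ± 0.25. Here 6.01% of all genes were higher and 9.41% lower.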

How the data were processed

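RNA of 15 mouse colon libraries in 6 groups was deposited as gene tables. The estimated counts were made by the authors with kallisto 0.46 on mm10, per the submitters' processing notes; annotation, strand setting and filters are not stated there. Deposited counts were whole numbers. The deposited log2 CPM table of the authors was recomputed from the counts with a prior count of 2 to within 0.018.

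The counts were fitted in edgeR 4.0.16 (R 4.3.3) with TMM scaling, filterByExpr, 1 mean per group and quasi-likelihood tests, Benjamini-Hochberg over 17477 genes; 12 comparisons were planned and the KO minus VAA difference was added after seeing the data. Residual degrees of freedom were 9. DESeq2 1.42.0 and limma 3.58.1 (on the deposited log2 values) were alternatives. The code was tested on simulated counts. Members and lists were chosen with earlier results of these data known. Named genes follow pathway order, with every library's value for most members called in a comparison, taken by smallest adjusted P. Ebp and Stard4, called for KO against VAA under DSS, are given without the value of every library. Hmgcs1, Scd1 and Me1 were added after their values were seen. Some genes of the wider pathway list are counted in it but not reported by name here. Promoters are RefSeq GRCm38.p6, exons GENCODE M21 (GRCm38).

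No library pair of a group agreed within counting noise (chi-square per degree of freedom 10.86 to 103.8). The labels do not say whether replicate numbers pair the libraries, and same-numbered pairs had deviations correlated from -0.22 to 0.38. In groups of 2 libraries the deviations mirror each other, so this range cannot settle pairing. Totals of 10.56 to 17.54 M counts limit the precision of members at a few CPM.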

Additional observations from a re-analysis of the deposited data

Results flagged for a closer look

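In 2 genes the libraries of KO colon moved one way under DSS and those of another genotype moved the opposite way. Tm7sf2, the sterol reductase, was above both KO untreated levels in all 3 KO DSS libraries and below both untreated levels of the same genotype in all 3 WT and all 3 VAA DSS libraries. The difference of the DSS effects, KO minus WT, was 0.87 ± 0.27 on the log2 scale (edgeR unadjusted P = 0.0057, adjusted P = 0.32), with adjusted P of 0.12 by DESeq2 and 0.38 by limma. The difference KO minus VAA was 0.98 ± 0.27 (edgeR unadjusted P = 0.0026, adjusted P = 0.14), with adjusted P of 0.024 by DESeq2 and 0.20 by limma.

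Srebf1, the SREBP regulator of fatty acid genes, was above both KO untreated levels in all 3 KO DSS libraries and below both WT untreated levels in all 3 WT DSS libraries. The difference KO minus WT was 1.27 ± 0.18 (edgeR unadjusted P = 9.58e-06, adjusted P = 0.13), with adjusted P of 2.9e-06 by DESeq2, 0.041 by limma and 0.049 by edgeR with no expression filter. Without VAA DSS replicate 2 it was 0.018 and without VAA DSS replicate 3 it was 0.027.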

How the results depend on the processing

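The sterol median exceeded the fatty acid median in the averaged DSS comparison under every alternative run, by 0.31 to 0.51. Other counts of called members are given against the count reported. DSS in WT (7) gave 3 with a term for sex, 1 without the 3 libraries high in adipocyte markers, 0 without both male libraries, 14 when only the WT groups were fitted and 1 to 11 leaving out 1 library at a time. DSS in VAA (7) gave 1 without the adipocyte-high libraries, 0 in a fit of its groups alone and 3 to 14 leaving out 1 library. DSS in KO (14) gave 4 without the adipocyte-high libraries, 3 without both male libraries and 2 to 21 leaving out 1 library. KO against WT under DSS (5) gave 3 with epithelial scaling, 0 without the adipocyte-high libraries, 2 without both male libraries, 8 by DESeq2, 19 in a fit of its groups alone and 2 to 19 leaving out 1 library. KO against VAA under DSS (16) gave 6 without the adipocyte-high libraries, 5 in a fit of its groups alone and 7 to 25 leaving out 1 library. VAA against WT under DSS (0) gave 0 to 3 leaving out 1 library. The KO minus WT difference (0) gave 1 with no expression filter, 1 by DESeq2, 1 by limma, 2 in a fit of its groups alone and 0 to 2 leaving out 1 library. The KO minus VAA difference (0) gave 2 with no expression filter, 4 by DESeq2, 1 by limma and 0 to 9 leaving out 1 library. Srebf1 in the averaged comparison turned to -0.0218 with epithelial scaling. Epithelial scaling, both exclusions of several libraries and the KO minus VAA difference were chosen after seeing the data, and the cause of these moves was not tested.

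With the replicate number as a block, called members numbered 19 in the averaged comparison, 9 in WT, 7 in VAA, 19 in KO, 4 for KO against WT and 18 for KO against VAA under DSS, and 0 elsewhere, and the branch difference was 0.37. Whether the numbers pair the libraries is not known: 10 of 33 same-numbered pairs had correlations over 0.1, and 8 of 15 libraries correlated best with their own number.

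Groups of 2 and 3 libraries and no strand setting limit the precision of these values. The 2 male libraries are among the 6 untreated ones, in WT and KO. Sex and DSS are therefore partly confounded in WT and KO, and their parts in these DSS effects cannot be told fully apart. Me1, Tm7sf2 and Pmvk rest on the fewest counts.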
